A study of Homo sapiens with 12 samples.

Results

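The 3 vehicle libraries of the series are described here by themselves, out of 12 libraries in all, as the baseline transcriptome of U87 cells. U87, also known as U87MG, is a human glioblastoma cell line, and these cells came from a commercial repository (ATCC). They were grown in DMEM with 10% fetal bovine serum at 5% CO2 and were harvested after 72 h with vehicle, which the labels do not identify further. Poly(A) RNA was sequenced as pairs of 50-base reads, and the labels describe each library as a separate biological replicate. The libraries are those whose titles name them vehicle 1, 2 and 3, and no column of a treated library was compared with them. The authors made the values of all 12 libraries in a single table, however, so the treated libraries can bear on the vehicle values through that step. All statements are therefore descriptions of 1 group with no test between groups.

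Glioblastomas are tumours with features of glia, and tumour profiles are usually sorted by genes of a proneural, a classical and a mesenchymal programme. Mesenchymal tumours are known for matrix, wound-response and inflammatory genes, whereas proneural tumours keep genes of the oligodendrocyte lineage. U87 is an adherent line that has long been used as a model of the disease, although the repository's stock is known to differ in its DNA from the tumour for which the line was named. DNA studies of the line report a homozygous deletion around CDKN2A.

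Levels are regularized log (rlog) values, which the authors computed from counts on the log2 scale. They are normalized for library size but not for gene length, so the ranking by mean rlog, the list medians and the summed shares favour long genes. Levels per kb, from which log2 of the exonic length in kb has been subtracted, are given for some comparisons between genes. Elsewhere, words such as highest or led refer to mean rlog, which is not corrected for length. The table listed 62757 gene IDs, of which 25759 stood at exactly 0 in all 3 vehicle libraries. All 25759 were also at 0 in the other libraries, and no row was at 0 in some libraries only, so 0 marks a gene without a value anywhere in the table. A gene with reads in any library has a value other than 0 in all, and 14544 genes had vehicle means below 0, of which 4650 lay within 0.005 of the lowest mean, -2.21. A mean of at least 3, which corresponds to about 8 normalized counts, was reached by 15510 genes (24.7%), and a mean of at least 7 by 10325. Among genes that the GENCODE 29 annotation calls protein coding, 12757 of 19855 (64.3%) reached 3, against 1451 of 12994 (11.2%) for intergenic and antisense noncoding RNAs. Read depth is unknown, since no counts were given. A value under 3 does not show that a gene was silent or expressed.

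By mean rlog, the 20 highest genes included matrix, cytoskeletal and glycolytic genes, together with the lipid gene SCD. FN1, which encodes the matrix protein fibronectin (ENSG00000115414.21, GRCh38 chromosome 2, 215360440 to 215436172), had the highest mean, with rlog values of 17.18, 17.19 and 17.31 in replicates 1, 2 and 3 (17.23 ± 0.075, SD, n = 3). SCD, the desaturase that makes monounsaturated fatty acids, followed at 17.10, 16.89 and 16.97 (16.99 ± 0.11). Replicate 3 was the highest library for FN1 and replicate 1 for SCD. The cytoskeletal actins ACTB (16.76 ± 0.046) and ACTG1 (16.66 ± 0.026) and the filament crosslinker FLNA (16.15 ± 0.019) were among the 20 highest. So were the glycolytic enzymes PKM (16.72 ± 0.028), GAPDH (16.39 ± 0.022) and ENO1 (16.32 ± 0.032).

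Surface and matrix genes took 6 more of the 20 highest places. They were ITGA3, an integrin subunit that binds laminin (16.24 ± 0.034), the collagen chain COL6A3 (16.12 ± 0.055), the collagen-binding adhesion protein TGFBI (15.92 ± 0.042), the gelatinase MMP2 (15.87 ± 0.057), the glycoprotein tenascin C, TNC (15.75 ± 0.056), and the galectin LGALS1 (15.74 ± 0.039). The remaining places went to the translation elongation factors EEF2 (16.19 ± 0.052) and EEF1A1 (15.78 ± 0.039), the intermediate filament vimentin, VIM (15.999 ± 0.029), the aldose reductase AKR1B1 (15.80 ± 0.064), and a pair of mitochondrially encoded transcripts. MT-RNR2, the large mitochondrial rRNA, stood at 16.66 ± 0.090, and MT-CO1, a subunit of cytochrome oxidase, at 16.20 ± 0.092. The same 20 genes made up the 20 highest when any library was left out, and 9 of them did so per kb.

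**Figure D1:**
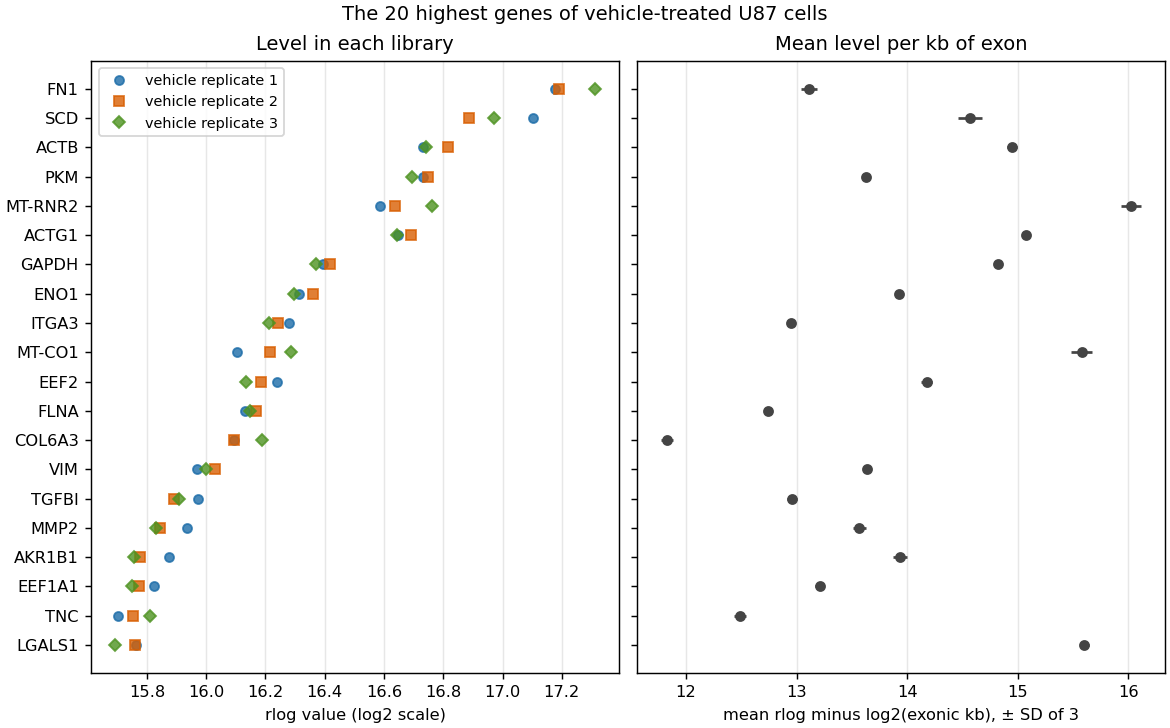
The 20 genes of highest mean rlog, with the value of each vehicle library (left, log2 scale) and the mean per kb of exon with the SD of 3 libraries (right). FN1 leads on the left at 17.23, while MT-RNR2, LGALS1 and MT-CO1 lie farthest to the right per kb, at 16.02, 15.60 and 15.58.

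Per kb of exon, short transcripts led. Among protein-coding genes, TMSB10, which encodes the small actin-binding protein thymosin beta 10 and has 496 exonic bases, stood first at 16.45 per kb (SD 0.018), with rlog values of 15.45, 15.43 and 15.42. LGALS1 followed at 15.60 (SD 0.039) and MT-CO1 at 15.58 (SD 0.092), which differed by less than the SD of either. With the longest transcript as the length, LGALS1 was at 16.39 and MT-CO1 still at 15.58, so their closeness depends on the length used. The light ferritin chain FTL (15.53), the heavy ferritin chain FTH1 (14.67), the calcium-binding protein gene S100A6 (14.84) and the metallothionein MT2A (14.67) also came within the first 15. FN1, with 17315 exonic bases, was at place 47 per kb, and COL6A3 at place 153. By the longest transcript they were at places 28 and 121. SCD kept place 15, at 14.57 per kb, and ACTB, ACTG1 and GAPDH places 10, 8 and 12. The ferritins, actins and GAPDH have many processed pseudogenes, and the way reads were divided between copies is not known.

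The leading transcripts held a modest share of the whole. When the values were taken back to the linear scale and summed, the 10 highest genes held 5.06% ± 0.060 (SD, n = 3), the 100 highest 19.98% ± 0.083 and the 1000 highest 52.1% ± 0.024, and 898 genes together held 50%. Ribosomal protein genes, 81 of them at or above 3, held 3.21% ± 0.041. By mean rlog, RPL3, RPLP0 and RPL8 were at the top of that class (14.99, 14.98 and 14.94). Per kb of exon, RPS12 led it at 14.22, with RPL8 at 13.83 and RPL3 at 12.73. With the longest transcript as the length, RPL8 (14.88) stood above RPS12 (14.48), so their order depends on the length used. The 22 mitochondrial genome genes not at 0 held 1.75%, 1.92% and 2.03% in replicates 1, 2 and 3, and replicate 1 was the lowest.

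The base composition of promoters varied with the level of the gene. In the 250 bases before the RefSeq start (GRCh38.p14, 15306 protein-coding genes matched by symbol, the first start listed for each), the median number of CG dinucleotides was 3 for genes at 0, 7 for other genes under 3, 16 for levels of 3 to 7, 21 for 7 to 10, 22 for 10 to 13 and 23 for levels of at least 13. The letters TATAA, sought on both strands in the last 50 bases before the start, were found in 6.49% of all 27305 promoters. Their share was 15.7% for genes at 0, 2.38% for levels of 7 to 10 and 14.6% for levels of at least 13. Of the 100 highest protein-coding genes with a promoter, 23% held these letters. They were also present in 5 of 19 cytokine and chemokine genes at or above 3, and in 1 of 32 receptor tyrosine kinase genes. These are counts of letters, and no binding or methylation was measured.

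Promoters of 3 abundant genes of different kinds are printed from 250 bases before the start up to the start, in the direction of transcription, with TATAA in capitals. They show a matrix gene and a short cytoskeletal gene in which TATAA follows a stretch dense in CG, and a chemokine gene in which CG is rare.
FN1 (chr2:215436069-215436318, minus strand): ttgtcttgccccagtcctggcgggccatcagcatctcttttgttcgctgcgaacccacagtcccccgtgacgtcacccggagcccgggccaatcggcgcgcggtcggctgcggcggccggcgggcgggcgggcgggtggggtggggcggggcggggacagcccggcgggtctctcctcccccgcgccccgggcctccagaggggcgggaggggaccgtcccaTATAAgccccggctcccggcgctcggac
TMSB10 (chr2:84905406-84905655, plus strand): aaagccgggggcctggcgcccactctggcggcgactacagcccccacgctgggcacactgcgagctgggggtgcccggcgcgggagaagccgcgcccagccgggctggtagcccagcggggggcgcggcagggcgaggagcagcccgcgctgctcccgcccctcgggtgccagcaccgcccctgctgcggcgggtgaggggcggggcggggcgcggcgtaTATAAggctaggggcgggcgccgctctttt
CXCL8 (chr4:73740319-73740568, plus strand): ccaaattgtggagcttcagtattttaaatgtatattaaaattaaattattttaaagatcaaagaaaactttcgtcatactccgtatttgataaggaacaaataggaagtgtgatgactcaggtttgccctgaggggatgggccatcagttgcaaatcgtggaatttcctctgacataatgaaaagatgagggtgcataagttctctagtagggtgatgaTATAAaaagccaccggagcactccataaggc
The TATAA letters begin 28 bases before the start in FN1, 30 in TMSB10 and 31 in CXCL8. CG occurs 32 times in the FN1 sequence, 31 times in that of TMSB10 and 4 times in that of CXCL8.

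Astrocyte markers were present in part. Of 11 markers, 7 (63.6%) reached a mean of 3, close to the 64.3% of all protein-coding genes, none stood at 0 and 4 lay under 3. The gap junction gene GJA1 stood at 12.92, 12.84 and 12.83, the brain aldolase ALDOC at 11.31 ± 0.061 and glutamine synthetase, GLUL, at 11.28 ± 0.10. GFAP, the intermediate filament that defines astrocytes, was low, at 5.79, 5.71 and 5.73, or 2.15 per kb against 13.63 per kb for VIM. The water channel gene AQP4 was at -2.21 in all 3 libraries, near the lowest mean in the table, and S100B at 0.77. The glutamate transporter SLC1A3 reached 9.66 ± 0.018, while SLC1A2 was at 4.62 ± 0.044.

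Oligodendrocyte, neural stem cell and neuron genes were present in part. In the oligodendrocyte list, 4 of 10 (40%) reached 3, and OLIG1 and NKX2-2 stood at 0. CSPG4, the NG2 proteoglycan, was the exception at 11.49 ± 0.030; OLIG2 was at 6.48, 6.52 and 6.54, PDGFRA at 6.06 ± 0.030 and the lineage factor SOX10 at 0.74. Among 13 neural stem and progenitor genes, 8 (61.5%) reached 3, again near the 64.3% of all protein-coding genes, led by VIM, the intermediate filament nestin, NES (10.65 ± 0.020), and NOTCH1 (9.92 ± 0.024). SOX2, a transcription factor of neural stem cells, was at 0.09, 0.09 and 0.10, the surface marker PROM1 at 3.02 ± 0.020, and HES5 at 0. Of 14 neuron markers, 8 (57.1%) reached 3. The neuronal enolase ENO2 (12.78 ± 0.034) and the microtubule protein MAP2 (9.71 ± 0.026) were the highest, followed by the synaptic genes SNAP25 (8.95 ± 0.054) and SYT1 (7.89 ± 0.061). The neuronal tubulin TUBB3 was at 5.40 ± 0.035. The neuronal splicing factor RBFOX3 was under 5, the transcripts NEFL and DCX were under 3, and ELAVL4 was at 0.

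Mesenchymal genes were nearly all present. In the mesenchymal and fibroblast list, 16 of 18 reached 3 and 13 reached 7, with a median level of 10.20. Over all protein-coding genes, 64.3% reached 3 and 50.4% reached 7. NT5E, an ectonucleotidase also known as CD73, stood at 14.95, 14.96 and 14.98, the matrix protein SPARC at 14.89 ± 0.077 and COL1A2 at 15.30 ± 0.096. Per kb, COL1A1 (10.86) and COL1A2 (11.82) lay far above COL3A1 (2.29). THY1 (0.93) and POSTN (-1.02) were under 3. Transcription factors linked to the mesenchymal state and to AP-1 all reached 3, 21 of 21. The architectural factor HMGA1 (14.19 ± 0.050), FOSL2 (13.42 ± 0.047), FOSL1 (13.03 ± 0.13), JUN (13.02 ± 0.038) and JUND were the 5 highest.

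All 18 mesenchymal subtype genes reached 3 and 16 reached 7, with a median of 12.34. The shares over all protein-coding genes were 64.3% at or above 3 and 50.4% at or above 7. The hyaluronan receptor CD44 stood at 15.11, 15.13 and 15.12, the protease inhibitor TIMP1 at 14.39 ± 0.026 and the secreted glycoprotein CHI3L1 at 13.01 ± 0.10. Of 13 proneural genes, 5 reached 3, with a median of 0.74; DLL3 was below 0, and TCF4 (10.10) and the adhesion molecule NCAM1 (9.26) were the highest. Of 12 classical genes, 10 reached 3, with a median of 8.99, led by NOTCH3 (12.80 ± 0.043), EGFR (11.99 ± 0.052) and the kinase gene AKT2 (11.72 ± 0.039). The lists share members with the lineage lists, and no tumour sample was at hand for comparison.

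**Figure D2:**
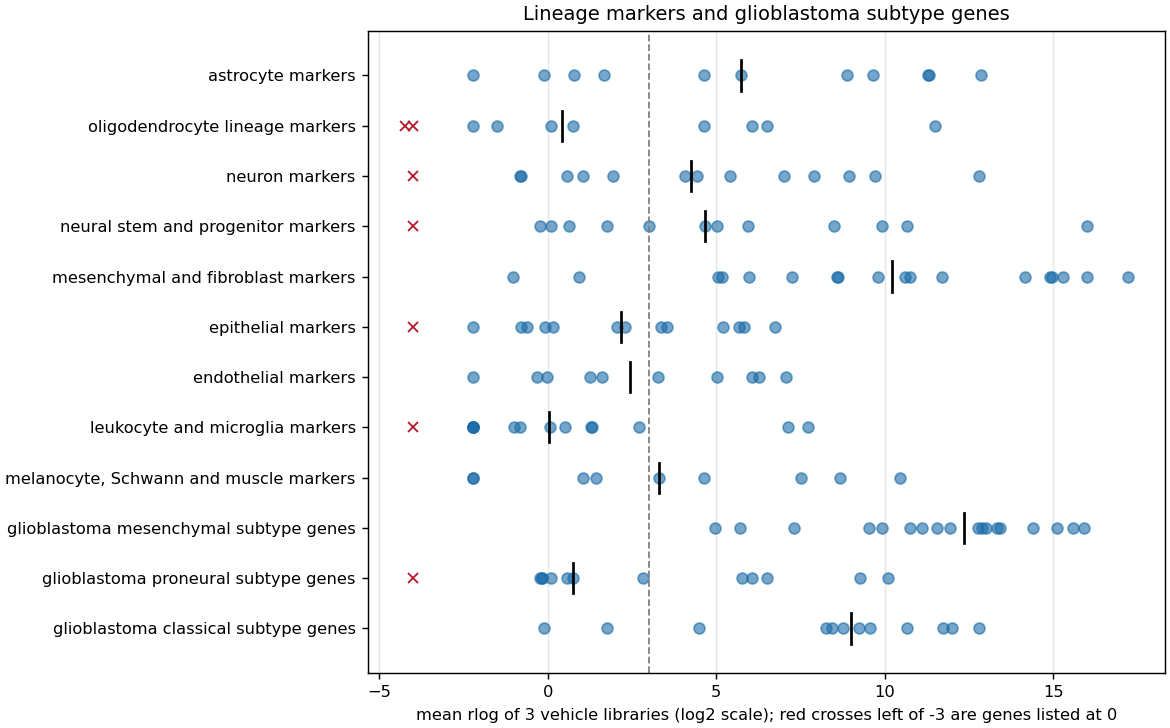
Each point is the mean rlog of a listed gene over the 3 vehicle libraries, red crosses are genes listed at 0, black bars are list medians and the dashed line marks the floor of 3. All 18 mesenchymal subtype genes lie to the right of the floor, against 5 of 13 proneural genes and 2 of 14 leukocyte and microglia markers.

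A mean of 3 was reached by 14.3% of leukocyte and microglia markers, 50% of endothelial markers and 42.9% of epithelial markers, beside 64.3% of all protein-coding genes. A mean of 7 was reached by 50.4% of all protein-coding genes. In the leukocyte and microglia list, 2 of 14 reached 3: CSF1R, the receptor for CSF1 (7.73 ± 0.023), and TMEM119 (7.12 ± 0.098). The leukocyte surface marker PTPRC was at 0.07, 0.07 and 0.06, CD14 was at 2.69, the T cell gene CD3E at -2.21 and CD3D at 0. Of 10 endothelial markers, 5 reached 3, with the VEGF receptor KDR (7.06 ± 0.097) and the angiopoietin receptor TEK (6.27 ± 0.028) the highest, VWF at 6.06 ± 0.035, PECAM1 at 5.01 ± 0.068 and CDH5, the endothelial cadherin, at 1.61. Of 14 epithelial markers, 6 reached 3 and none reached 7. KRT8 was at 6.74 ± 0.087, CLDN4 at 5.82 ± 0.023, CLDN7 at 5.69 ± 0.043, EPCAM at 3.55 ± 0.027 and CDH1, the epithelial cadherin, at -0.08, while KRT5 was at 0. In the melanocyte, Schwann cell and muscle list, 5 of 9 (55.6%) reached 3 and 3 reached 7. PMP22 (10.45 ± 0.025) and MITF (8.67 ± 0.042) stood above 7, the melanocyte genes PMEL and MLANA were at 4.63 ± 0.023 and 3.29 ± 0.015, and TYR and MYOD1 were near the lowest mean in the table, at -2.21. In bulk RNA, few cells with much of a transcript and many cells with little of it cannot be told apart.

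Of 28 glioma driver and tumour suppressor genes, 22 reached 3, 20 reached 7 and 6 stood at 0 in all 3 libraries: CDKN2A, CDKN2B, CDKN2C, MTAP, MGMT and MYCN. None lay between 0 and 3. Over all protein-coding genes, 64.3% reached 3, 50.4% reached 7 and 2442 of 19855 stood at 0. The cell cycle regulator RB1 was at 9.54 ± 0.015, MET at 12.75 ± 0.013, IDH1 at 12.20 ± 0.057, the repressor CIC at 12.19, CDK4 at 10.87 ± 0.024 and the telomerase gene TERT at 4.33 ± 0.017. An mRNA level does not show whether the encoded protein is intact. Proliferation genes were all present: 12 of 12 reached 7, with CCND1, the cyclin of G1 phase, at 13.41, the topoisomerase TOP2A at 12.80 and MKI67 at 12.79.

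The genes at 0 on chromosome 9 formed a block. In order along the chromosome, 25 protein-coding genes with a model in GENCODE 29 lay under 3 without interruption, from MLLT3 to DMRTA1 (GRCh38 chromosome 9, 20341665 to 22455740, 2.11 Mb), and 24 of them stood at 0. The exception was FOCAD, at -2.21 in all 3 libraries. Of all 19855 protein-coding genes, 2442 stood at 0. Besides CDKN2A and CDKN2B, which encode inhibitors of cell cycle kinases, the block held MTAP, an enzyme of methionine salvage, KLHL9, HACD4 and 16 type I interferon genes. On its left flank SLC24A2 stood at 7.88 ± 0.034, ACER2 at 4.35 ± 0.019 and RPS6, a ribosomal protein gene, at 13.28 ± 0.011. On its right flank ELAVL2 stood at 5.33 ± 0.0047, IZUMO3 at 0 and TUSC1 at 9.02 ± 0.0030. The noncoding transcripts MIR31HG, CDKN2A-DT and CDKN2B-AS1 of the same region were also at 0. Among 3453 such runs in the genome this was the 10th longest, and the 16 interferon genes count towards its length. The longer ones start or end in genes such as olfactory receptors (OR4B1, OR2B11, OR51D1), keratin-associated proteins (KRTAP19-8, KRTAP1-4) and the skin gene FLG2, and were picked out only after their values were seen. DNA copy number was not measured.

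**Figure D3:**
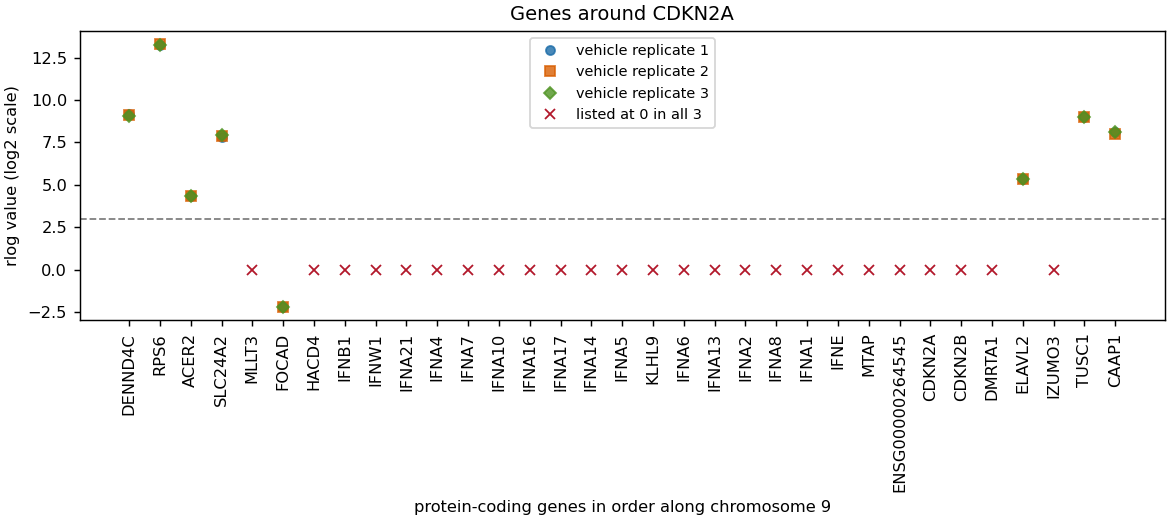
Rlog values of the 3 vehicle libraries for protein-coding genes in order along chromosome 9, with the block under 3 and 4 genes on each side; red crosses are genes listed at 0 in all 3 libraries. The points of the 3 libraries coincide, and no gene from MLLT3 to DMRTA1 reaches the dashed floor of 3.

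CDKN2C and MGMT had different surroundings, which were examined after their values were seen. CDKN2C, an inhibitor of CDK4 and CDK6 on chromosome 1, stood at 0 together with its neighbours FAF1 and C1orf185, while RNF11, the next gene, was at 11.45. FAF1 encodes a FAS-associated factor that takes part in protein degradation. The run under 3 around them held 7 genes, 5 at 0, and was the 96th longest. MGMT, the enzyme that repairs alkylated guanine and whose promoter methylation is used to predict response to temozolomide, stood at 0 alone, with MKI67 at 12.79 on its left and EBF3 at 4.20 on its right. GPC4, a glypican gene on the X chromosome, stood at 0 with GPC3 and CCDC160 on its right and TFDP3 and USP26 on its left. Beyond them PHF6 was at 9.59 on the right, and HS6ST2 at -1.73 and MBNL3 at 5.64 on the left.

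The promoter of MGMT is printed because it is among the genes at 0 but is rich in CG: it holds 36 CG dinucleotides, against a median of 3 for genes at 0. The window is the 250 bases before the start, 5′ to 3′, with each CG in capitals.
MGMT (chr10:129466991-129467240, plus strand): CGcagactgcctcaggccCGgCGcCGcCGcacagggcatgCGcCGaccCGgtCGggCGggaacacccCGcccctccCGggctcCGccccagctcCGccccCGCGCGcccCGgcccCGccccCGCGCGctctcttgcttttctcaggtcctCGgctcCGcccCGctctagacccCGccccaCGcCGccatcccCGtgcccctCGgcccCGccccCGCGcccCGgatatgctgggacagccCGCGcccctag

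Some secreted factors were abundant and others were not. Of 25 cytokine genes, 14 (56%) reached 3, beside 64.3% of all protein-coding genes, and 6 reached 10. The median of the list was 4.88. Of the 15306 protein-coding genes with a promoter, 3401 had levels of 10 to 13 and 268 of at least 13. CSF3, the granulocyte colony-stimulating factor, led at 14.27, 14.56 and 14.51 (14.45 ± 0.16), or 13.30 per kb. IL1B followed at 12.74, 13.02 and 12.96, LIF at 12.76, 12.87 and 12.92, CSF1 at 12.64, 12.56 and 12.59 and IL6 at 11.53, 11.60 and 11.64. Replicate 1 was the lowest library for CSF3, IL1B, LIF and IL6, but the highest for CSF1. IFNB1, which lies in the chromosome 9 block, IFNG and IL17A were at 0, and TNF was at 4.70. Among 19 chemokine genes, 12 (63.2%) reached 3, with a median of 4.66. The neutrophil chemokine CXCL8 stood at 14.03, 14.23 and 14.23, CXCL2 at 11.92 ± 0.065 and CXCL3 at 10.36 ± 0.13, whereas CXCL10 (-0.11) and CXCL12 (2.65) were under 3. The CXCL1 to CXCL3 genes are close paralogs and their separate levels are uncertain.

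Growth factor genes reached 3 in 44 of 51 cases (86.3%), beside 64.3% of all protein-coding genes, and 10 in 20. Of the 15306 protein-coding genes with a promoter, 3401 had levels of 10 to 13 and 268 of at least 13. By mean rlog, the glycoprotein hormone STC1 was highest at 14.85 ± 0.046, before EREG, a ligand of the EGF receptor (13.80 ± 0.033), the angiogenic factor VEGFA (13.42 ± 0.039), TGFB1 (13.20 ± 0.034) and WNT5A (12.95 ± 0.030). Per kb the order changed, with STC1 at 12.80, TGFB1 at 11.51, EREG at 11.28, WNT5A at 10.07 and VEGFA at 9.57. Those under 3 were AREG, IGF1, IGF2, PDGFB, PDGFD, BMP4 and NTF3. Of 42 genes for matrix proteins, proteases and inhibitors, 40 reached 3 and 32 reached 10, with a median of 13.04. Their 5 highest members, FN1, COL6A3, TGFBI, MMP2 and TNC, were also among the 20 highest genes of the table. POSTN and the proteoglycan BGN (2.34) were under 3, and MMP9 was at 3.89.

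Receptor tyrosine kinases ranged from among the more abundant genes to 0. Of 58, 34 (58.6%) reached 3, near the 64.3% of all protein-coding genes, and FLT3 and EPHA8 stood at 0. A level of 7 was reached by 23, beside 50.4% of all protein-coding genes, and a level of 10 by 12. Of the 15306 protein-coding genes with a promoter, 3401 had levels of 10 to 13 and 268 of at least 13. AXL, the receptor for GAS6, was highest with 13.49, 13.49 and 13.46, or 11.11 per kb (SD 0.020). MET, the receptor for hepatocyte growth factor, followed with 12.77, 12.75 and 12.74, or 9.94 per kb (SD 0.013). Per kb, EPHA2 (9.02, SD 0.070) and the collagen receptor DDR2 (8.98, SD 0.090) differed by less than either SD, and PDGFRB (8.88), FGFR1 (8.69) and EGFR (8.34) came after them. With the longest transcript as the length, FGFR1 (9.85) and PDGFRB (9.20) stood above EPHA2 (9.09), so the order of these receptors depends on the length used. ERBB2 was at 8.06 ± 0.033, and KIT, NTRK2, FGFR2 and FLT1 were below 0.

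Cytokine receptors reached 3 in 27 of 33 cases (81.8%), beside 64.3% of all protein-coding genes. The shared signal chain IL6ST (12.18 ± 0.016), IL13RA1 (12.22 ± 0.022), OSMR, the oncostatin M receptor (12.16 ± 0.037), the TNF receptor TNFRSF1A and IFNAR1 were the 5 highest, and CSF2RA was at 0. IL13RA2, a decoy receptor for interleukin 13 that is a target of experimental glioma therapy, stood at 10.67, 10.57 and 10.66. Of 19 Notch, Wnt and Hedgehog receptors, 16 reached 3. NOTCH2 (13.89 ± 0.028) and NOTCH3 led, before FZD1 (10.18 ± 0.029), FZD9 and FZD10 were at 0, and SMO, the signal transducer of the Hedgehog pathway, was at 1.75. All 12 death and TNF family receptors reached 3, with the TRAIL receptor TNFRSF10B at 12.01 ± 0.0093, TNFRSF12A at 11.10 ± 0.048 and TNFRSF10D at 10.68 ± 0.058. So did 11 of 12 TGF-beta family receptors, with TGFBR1 at 11.23 ± 0.070, TGFBR2 at 11.17 ± 0.047 and ACVR1 at 10.88 ± 0.072. Of 34 G protein-coupled receptors, 26 reached 3, led by the adhesion receptor ADGRG1 (12.65 ± 0.023), ADGRE5 (11.54 ± 0.012) and the sphingosine phosphate receptor S1PR3 (10.91 ± 0.023), while CXCR1 was at 0, CXCR2 at -2.21 and CXCR4 at -0.99.

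Integrin subunits spanned a wide range. Of 25, 18 (72%) reached 3 and 14 reached 7, with a median of 7.84 over all 25. Over all protein-coding genes, 64.3% reached 3 and 50.4% reached 7. ITGA3 (12.95 per kb), ITGB1 (11.92) and the fibronectin receptor subunit ITGA5 (11.74) led, and the leukocyte subunit ITGB2 was at 1.07. Of 25 surface antigens and immune ligands, 24 reached 3 and 23 reached 7. Class I genes were abundant, with B2M at 15.10 ± 0.036 and HLA-B at 14.29 ± 0.048. A class II gene, HLA-DRA, was at 11.31, 11.24 and 11.21, and its transactivator CIITA at 9.41, 9.50 and 9.48. The checkpoint ligand CD276 was at 12.32 ± 0.073 and CD70 at 10.53 ± 0.067. HLA genes are close paralogs and vary between alleles, so their separate levels are uncertain. Of 20 cancer-testis antigens, 7 (35%) reached 3, led by MAGEC2 (6.42 ± 0.039), MAGEC1 (6.27 ± 0.022) and MAGEA6 (5.91 ± 0.092). PRAME, CTAG1B, MAGEB2, SSX2 and XAGE1B were at 0, and members of these families are near copies of each other.

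Ligands and receptors were set side by side in 40 chosen pairs of reported partners, and direct binding was not examined. EGFR and some other genes enter several pairs. Ligands and receptors may also have partners outside these pairs. A receptor under 3 therefore does not show that the cells lacked every receptor for its ligand. Over all protein-coding genes, 50.4% reached 7 and 64.3% reached 3. Whether any kind of pair exceeded what these shares give was not tested. Both partners reached 7 in 17 pairs, the ligand alone did so with its receptor under 3 or at 0 in 8, and the receptor alone did so with its ligand under 3 in 8. HGF (10.997 ± 0.029) and MET, GAS6 (10.59 ± 0.059) and AXL, FGF2 (11.64 ± 0.067) and FGFR1, IL1B and IL1R1 (10.22 ± 0.067), LIF and LIFR (10.21 ± 0.026) and 3 EGFR ligands with EGFR were among the first kind. Per kb, EREG lay 2.94 above EGFR, TGFA 0.20 above it and HBEGF 0.046 above it, the last within the SD of either gene (0.099 and 0.052). With the longest transcript as the length, TGFA (8.74) and HBEGF (8.72) both lay close to EGFR (8.69). The second kind held CSF3 with CSF3R (-1.73), CXCL8 with CXCR2, VEGFC (10.93 ± 0.024) with FLT4 (-0.49), WNT5A with ROR2 (-0.62), BDNF (9.91 ± 0.027) with NTRK2 (-1.25), NRG1 (11.30 ± 0.090) with ERBB3 (2.84), GDNF (9.02 ± 0.10) with RET (1.82) and CSF2 (8.003 ± 0.12) with CSF2RA. The last kind held PDGFRB (11.71 ± 0.052) with PDGFB and PDGFD, IGF1R (9.26 ± 0.047) with IGF1 and IGF2, EPHA2 with EFNA1 (2.13), TNFRSF10B with TNFSF10 (2.75), EGFR with AREG and IL13RA2 with IL13. These are mRNA levels, and serum in the medium could also carry ligands, whose amount was not measured.

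**Figure D4:**
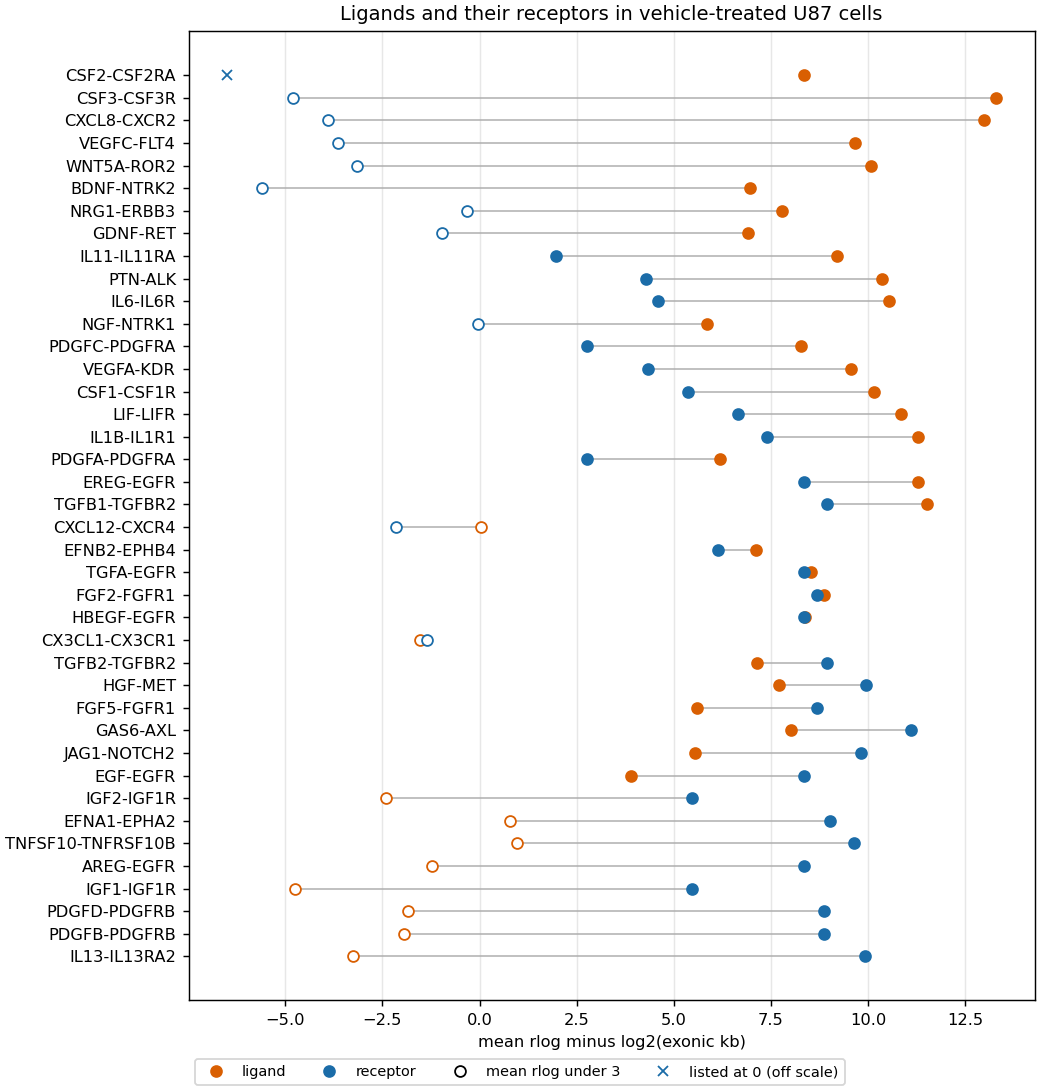
Level per kb of exon for the ligand (orange) and the receptor (blue) of 40 pairs, in order of their difference; open circles are genes with a mean rlog under 3, and the blue cross marks CSF2RA, listed at 0 and drawn off the scale. CSF3 and CXCL8 stand at 13.30 and 12.98 per kb with receptors below 0, whereas TGFA and HBEGF lie next to EGFR. FGF2 lies next to FGFR1 here, but below it (8.88 against 9.85) with the longest transcript as the length.

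The 3 vehicle libraries were close to each other. Across the 15510 genes at or above 3 the root mean square difference was 0.0693 between replicates 1 and 2, 0.0719 between 1 and 3 and 0.0628 between 2 and 3, and no gene differed by more than 0.5 between any pair. The median SD was 0.0364, and 402 genes (2.59%) had an SD over 0.1. By level, the median SD was 0.0233 for means of 3 to 5, 0.0476 for means of 7 to 9 and 0.0339 for means of at least 13. The rlog step pulls values of genes with few reads towards their mean, so the small SD at low levels understates the noise of their counts.

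The genes of largest spread shared a library order. Among the 12 with the largest SD at a mean of at least 7, replicate 1 was lowest and replicate 3 highest in 10, a pattern seen in 15.9% of all 10325 genes at that level. The nuclear RNA NEAT1 stood at 11.69, 11.92 and 12.12, MALAT1, another nuclear RNA, at 9.04, 9.17 and 9.44, and LRP1, a large endocytic receptor, at 14.76, 14.95 and 15.15. In the same noncoding list, GAS5 was at 10.06 ± 0.019 and MEG3 at 9.87 ± 0.13. The others in that order were the transcription factor gene POU2F2, the growth factor PDGFA, SYNE2, CCNL2, PINLYP, OGT and WSB1, with SDs of 0.18 to 0.20. RN7SL1, the RNA of the signal recognition particle, which lacks a long poly(A) tail, had the largest SD of all, 0.22, and was highest in replicate 1, at 8.91, against 8.50 and 8.56. MST1 was at 7.32, 7.16 and 7.53; it has a near-identical pseudogene copy, and its level is uncertain.

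Mitochondrial mRNAs moved with the same order. In all 13, replicate 1 was the lowest library, and in 12 of 13 replicate 3 was the highest. Among all 15510 genes at or above 3, replicate 1 was lowest in 5099 and replicate 3 highest in 4954. The 13 mRNAs share the mitochondrial genome, so they are not independent observations. Their median SD was 0.12, against 0.026 for ribosomal protein genes. MT-ATP6, a subunit of ATP synthase, stood at 14.31, 14.53 and 14.61. The median deviation from the gene mean was -0.14, 0.033 and 0.096 in replicates 1, 2 and 3 for mitochondrial mRNAs, and -0.088, 0.0027 and 0.082 for the 7 nuclear noncoding transcripts at or above 3. For all genes at or above 3 it was 0.0017, -0.0014 and -0.00095. Cytokine genes at or above 3 had median deviations of -0.024, 0.011 and 0.026, and chemokine genes -0.039, 0.024 and 0.026. RNA quality was not given for these libraries, and its part in these differences was not tested. By transcript length, the median deviation of the 3772 genes with the longest transcripts was -0.0019, -0.0077 and 0.010, and that of the 3775 with the shortest 0.0022, 0.0027 and -0.0055.

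**Figure D5:**
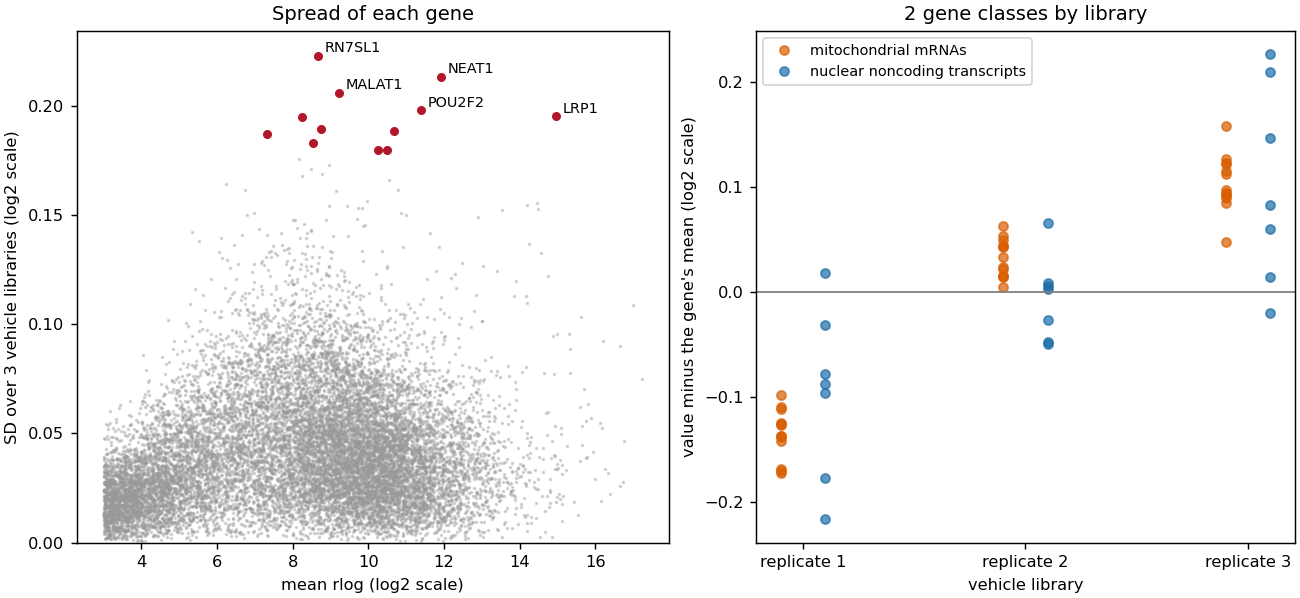
Left, the SD over 3 vehicle libraries against the mean rlog for each gene at or above 3, with the 12 genes of largest SD at a mean of at least 7 in red. Right, the value of each library minus the mean of the gene for 13 mitochondrial mRNAs and 7 nuclear noncoding transcripts; all mitochondrial mRNAs lie below 0 in replicate 1.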

How the data were processed

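The values analysed are log2-scale regularized log (rlog) values that the authors deposited for all 12 libraries in a table of 62757 gene IDs. Per the submitters' processing notes, STAR 2.7.10a, DESeq2 1.30.1 and GRCh38 were used. The counter, annotation release, strand setting and filters were not given in the sources used here, so antisense and overlapping genes are uncertain. Only the 3 vehicle columns were analysed, matched by library name; the others were read once, to see where rows at 0 are 0 throughout. Depth is unknown, and precision is the SD over 3 libraries.

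Symbols were matched by gene ID for 62639 rows. Exonic length (the union of exons) and coordinates came from GENCODE 29 on GRCh38, which covered 97.3% of genes with a mean of at least 3. Levels per kb are the mean minus log2 of exonic kb. Linear shares used 2 to the power of the rlog value. Named genes were the 20 highest, the 15 highest per kb, the 12 of largest SD at a mean of at least 7, both genes of each pair, the chromosome 9 block, and in each of 30 lists up to 5 of the highest members and those at 0, with the first 3 members of each lineage list; other members named are those that define a cell type or that readers would look for, and were chosen after their values were seen. The vehicle libraries were taken by their labels; that they were described by themselves, and which genes, lists and pairs were used, was chosen with earlier results of these data known. No test was run, since there was 1 group; the ranking and SD were checked on simulated data. Alternatives were other floors, scalings, lengths, filters and leaving out each library. Promoter sequences are from RefSeq, GRCh38.p14. Computation used pandas 2.3.3 with numpy 2.4.6 under Python 3.11.15, and plots used matplotlib 3.10.9. Some genes that this rule names are not reported here.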

Additional observations from a re-analysis of the deposited data

How the results depend on the processing

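No paired analysis was possible because only the vehicle group was described. The libraries were left out in turn, brought to a common median or quantile-normalized. These changes moved the count of genes at or above 3 from 15510 to between 15506 and 15513. They left the same 20 genes as the 20 highest, though not always in the same order. They gave a count of 407 of the 567 listed genes at or above 3. The count of 25759 genes at 0 could not change when a library was left out, since no row was at 0 in some libraries only. Floors of 1 and 5 gave 19767 and 12617 genes, and 450 and 367 listed genes. Ranked per kb of exonic length, 9 of the 20 highest genes stayed among the 20 highest, and per kb of the longest transcript 10. The share of mitochondrial genome genes was 1.39% among protein-coding genes and 7.27% for length-scaled values, against 1.90%. The share of ribosomal protein genes was 3.27% among protein-coding genes, 3.27% without mitochondrial genes and 4.55% for length-scaled values, against 3.21%. The share of the 100 highest genes was 19.6%, 18.8% and 24.4% under these settings, against 19.98%. The median SD of 0.0364 was 0.0276 to 0.0309 with 1 library left out, 0.0092 with no filter on low values, and the median range was 0.0692. For the 20 highest genes, all 120 values under the alternatives lay within the SD of the main value. Most of them had to. With 3 libraries, leaving out a library or taking the median cannot move a value farther than that. A common median left the means unchanged. Only the quantile-normalized values could have fallen outside. With unknown depth, genes with few reads cannot be told from silent ones.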
